A study of Mus musculus with 6 samples.

Results

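The MCM helicase and replication clamp genes are 10 mouse genes of DNA replication, Mcm2, Mcm3, Mcm4, Mcm5, Mcm6, Mcm7, Pcna, Cdc45, Cdt1 and Gmnn, and they were found by matching their symbols to the gene names of the deposited tables. Each of the 10 had a row of its own among the 23698 rows of each table, and 0 were in a row that joins several gene names. All 10 passed the filters on low values described below. The study compared transcript isoforms between stem cells of the epidermis, keratinocytes without these mutations and cells of squamous cell carcinoma kept in culture (SCCc), all from mouse skin, and translational efficiency between the keratinocytes and the SCCc. The SCCc are primary keratinocytes taken from back skin at postnatal day 0, of the genotype HrasG12V; Tgfbr2 fl/fl KO, grown in culture as 1 established line and used at passages 10 to 15. Ribosome profiling and RNA-seq in the study used this line, and 3 of its libraries are described here, 1 of ribosome profiling and 2 of RNA-seq. The long-read libraries, the wild-type libraries and further SCCc libraries were not analysed here, so all values are levels within SCCc and not differences from wild-type cells.

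The MCM proteins encoded by Mcm2 to Mcm7 form a ring of 1 copy of each, which the origin recognition complex (ORC), Cdc6 and Cdt1 load around DNA in G1 phase. In S phase the ring joins Cdc45 and the GINS complex and unwinds the fork, and PCNA, a sliding clamp set on DNA by replication factor C (RFC), holds the polymerases to their template. Geminin, the product of Gmnn, binds Cdt1 and blocks a new round of loading, and in skin these genes are active in the dividing cells of the basal layer and in carcinomas derived from them.

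Each MCM subunit holds a Walker A motif, the loop that binds ATP, and its codons are shown because they allow the relatedness of the subunits, and so the chance of shared reads, to be seen. The coding sequences are those of GENCODE M21 on GRCm38, printed 5′ to 3′ with the 24 nt of the motif in capitals.
Mcm2: tgtGGGGACCCTGGCACAGCAAAGTCCcaa
Mcm3: ataGGTGACCCCTCCGTTGCCAAGTCCcag
Mcm4: tgtGGGGACCCTGGCACCAGCAAGTCCcag
Mcm5: ttgGGAGACCCTGGTACAGCCAAGTCTcag
Mcm6: gttGGTGATCCAAGTACAGCTAAGAGCcaa
Mcm7: atgGGAGACCCTGGTGTGGCCAAATCTcag
Over the 15 pairs of subunits, between 12 and 20 of the 24 bases were the same, and 8 of the 24 positions held the same base in all 6 genes. Over whole coding sequences, 0 windows of 28 nt, about the length of a footprint, were shared between any of the 10 members. Copies elsewhere in the genome were closer. Of the 28 nt windows of Pcna, 77.2% also occurred in other annotated genes, all of them in the processed pseudogene Pcna-ps2, and of those of Mcm7, 54.9% occurred in Gm5487. The share was 15.3% in Gmnn, 9.41% in Mcm4, 2.95% in Mcm6 and 0% in Mcm2, Mcm3, Mcm5, Cdc45 and Cdt1. How reads of such windows were assigned is not given in the sources used here, so the values of Pcna and Mcm7, and less so those of Gmnn, Mcm4 and Mcm6, are uncertain to that extent.

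Footprints are stretches of mRNA that a ribosome covers and thereby shields from nuclease. Depth, as the sum of exon counts, was 3549555 for ribosome profiling and 10707930 and 14003713 for RNA-seq replicates 1 and 2. The 10 members held 8110 of the counts in ribosome profiling and 4943 and 5971 of those in the RNA-seq replicates. Per 1000000 exon counts, this is 2285 in ribosome profiling against 462 and 426 in the RNA-seq replicates. A count of 0 allows a level of up to 0.845 per 1000000 in ribosome profiling, where the depth was lowest, and of 0.280 and 0.214 in the RNA-seq replicates. The labels do not say whether the RNA-seq replicates came from separate cultures, so their spread may be technical, and intervals given for counts cover counting error only.

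The label of the cells was checked against marker genes, with levels as RPKM, the counts per kilobase of counted length and per 1000000 exon counts. All 7 basal keratinocyte markers passed the filters, and their summed level was 8759 RPKM in footprints and 14398 and 16518 RPKM in RNA-seq replicates 1 and 2. Krt5, a keratin of the basal layer, was the most abundant of them at 7965 and 9483 RPKM in RNA. The 7 fibroblast and feeder markers summed to 0.870 RPKM in footprints and to 10.1 and 15.5 RPKM in RNA, led by Col3a1 at 3.89 and 5.49 RPKM, and 0 of the 7 passed the filters. The 4 immune markers, of which Adgre1 was listed under its older symbol Emr1, summed to 10.3 RPKM in footprints and 35.3 and 37.6 RPKM in RNA. Nearly all of this was Cd68, at 35.1 and 37.3 RPKM in RNA, while Cd3e had 0 counts in all 3 libraries and Ptprc and Adgre1 had 0 footprints. The 4 melanocyte markers summed to 0.300 RPKM in footprints and 5.38 and 5.47 RPKM in RNA, nearly all from Pmel at 5.03 and 5.19 RPKM. The 3 endothelial markers stayed at or below 0.908 RPKM in sum in each library, led in RNA by Kdr. Basal keratinocyte markers were thus abundant in all 3 libraries, and the sum of each other cell type was low beside theirs. Cd68 and Pmel passed the filters. In RNA, Cd68 lay below the lowest basal marker, Cdh1 at 50.8 and 51.8 RPKM, but above the median of all genes that passed, 15.3 RPKM.

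Markers of dividing cells differed in level between the kinds of library. The 6 genes Mki67, Top2a, Ccnb1, Cdk1, Ccna2 and Birc5 all passed the filters and summed to 1212 RPKM in footprints, against 167 RPKM in RNA-seq replicate 1 and 133 RPKM in replicate 2. Top2a was the most abundant in RNA at 63.4 and 46.7 RPKM, and 0 of the 6 were at 0 counts. Footprints and RNA are different measures, and in bulk libraries the share of dividing cells and the level per dividing cell cannot be told apart. Whether the footprints and the RNA came from the same culture is not given in the sources used here, and the part of the share of dividing cells in the member values below was not tested.

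The modified genes were counted in all libraries. Hras, the oncogene, had 64.0 RPKM in footprints and 48.5 and 50.9 RPKM in RNA. Tgfbr2, the receptor deleted in these cells, had 30.7 RPKM in footprints and 61.4 and 59.0 RPKM in RNA. Counts per gene show neither a base change nor the loss of single exons, so both modifications cannot be read from these levels.

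The first question is how evenly the 6 subunits of the ring were represented in footprints and in RNA. Footprint density on the coding sequence (CDS) was 119.9 RPKM for Mcm3 (95% Poisson interval from 113 to 127), on chr1:20802968-20820312 of GRCm38, as are all positions of genes here. It was 104.8 RPKM for Mcm5 (97.7 to 112), on chr8:75109569-75128439, and 98.8 RPKM for Mcm7 (91.8 to 106), on chr5:138164583-138172422. These lay highest, and the subunits of the catalytic core of the ring, Mcm4 and Mcm6 with Mcm7, were close to each other. Mcm4, on chr16:15623897-15637400, had 91.6 RPKM (85.5 to 98.0) and Mcm6, on chr1:128331590-128359664, had 91.5 RPKM (85.3 to 98.1). Mcm2, which also binds histones, was the lowest at 73.1 RPKM (67.8 to 78.7), on chr6:88883474-88898780. Of the 10 members, Mcm5 and Cdt1 lie on the + strand and the others on the - strand. The highest and lowest density differed 1.64-fold, on between 704 and 1037 footprints a gene.

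RNA density on exons spanned a similar range with another order. Mcm5 was the lowest subunit in both RNA-seq replicates, at 12.0 and 12.2 RPKM. Mcm7 had 16.2 and 15.3 RPKM, Mcm2 16.4 and 16.7 RPKM and Mcm6 17.4 and 15.4 RPKM. Mcm3 had 19.0 and 16.6 RPKM and Mcm4 18.6 and 17.1 RPKM. The top of the order changed between the replicates, with Mcm3 first in replicate 1 and Mcm4 first in replicate 2, whereas its lowest gene did not. The highest density was 1.58-fold the lowest in replicate 1 and 1.41-fold in replicate 2.

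If the 6 subunits were equal, each would hold 16.7% of their summed density. Mcm5 held 18.1% in footprints but 12.1% and 13.0% in the RNA-seq replicates. Mcm2 went the other way, with 12.6% in footprints and 16.5% and 17.9% in RNA. Mcm3 held 20.7% in footprints and 19.1% and 17.8% in RNA, above the equal share in all 3 libraries. Mcm7 lay near it throughout, at 17.0%, 16.3% and 16.4%. Mcm4 held 15.8% in footprints and 18.6% and 18.4% in RNA, and Mcm6 15.8%, 17.4% and 16.5%. For each subunit other than Mcm6, the share in footprints lay farther from the share in either RNA-seq replicate than these lay from each other.

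**Figure D1:**
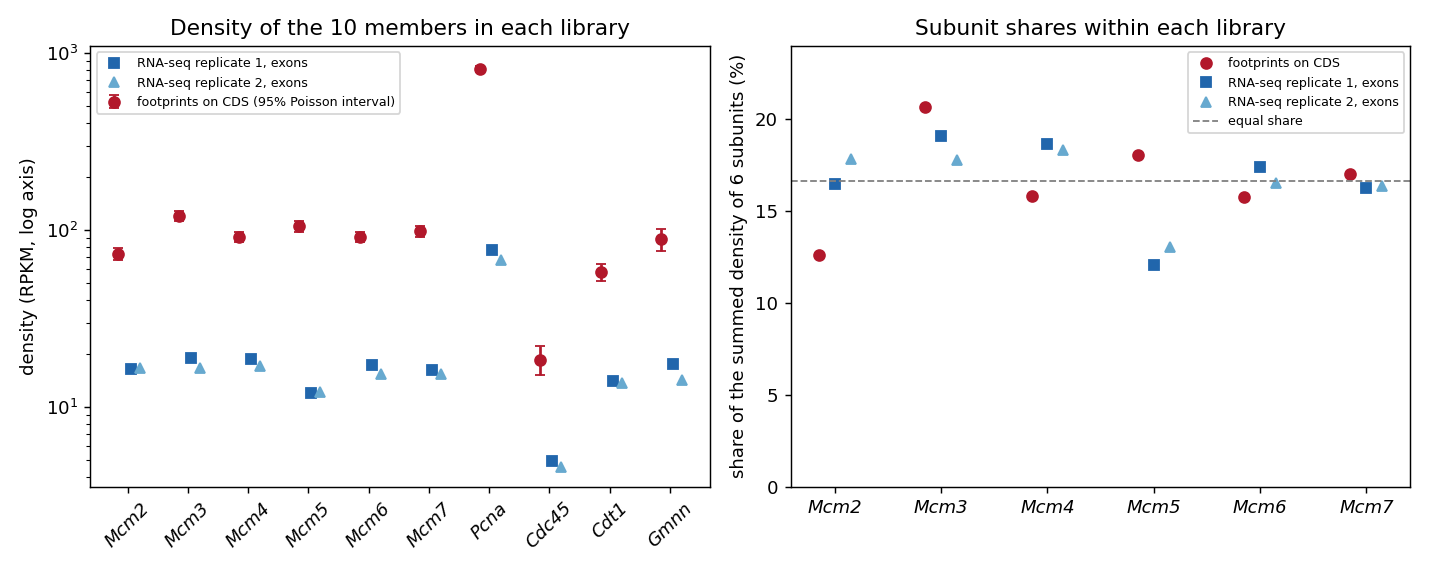
Left, density in RPKM (log axis) of the 10 members in the ribosome profiling library (circles, with 95% Poisson intervals) and in RNA-seq replicates 1 (squares) and 2 (triangles). Right, the share in percent of the summed density of Mcm2 to Mcm7 that each held in each library, where Mcm5 is below the equal share of 16.7% (dashed) in both RNA-seq replicates and above it in footprints, and Mcm2 is lowest in footprints.

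The SD of log2 density over the 6 subunits was 0.24 in footprints, 0.24 in RNA-seq replicate 1 and 0.18 in replicate 2. For the mean of the RNA-seq replicates it was 0.21. Counting error on its own would give about 0.05 in footprints and 0.06 in each RNA-seq replicate, so the subunits differed by more than counting error in every library. The spread in footprints was as large as that in RNA-seq replicate 1 and larger than that in replicate 2. This order turned without division by length, where the SD was 0.19 in footprints and 0.29 for mean RNA. With RNA-seq counted over the CDS in place of exons, the SD in RNA fell to 0.14, and Mcm5 was lowest in replicate 1 but Mcm7 in replicate 2.

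Ratios between subunits of the same library show which of these gaps exceed counting error. Of the 15 pairs, 11 had a 95% exact conditional binomial interval that excluded equal density in footprints, 9 in RNA-seq replicate 1 and 6 in replicate 2. In footprints, Mcm3 was 1.14-fold Mcm5 (1.04 to 1.26) and Mcm2 was 0.799-fold Mcm6 (0.721 to 0.886). The genes between these, Mcm5, Mcm7, Mcm4 and Mcm6, followed each other without a gap between neighbours beyond the interval. In RNA, Mcm5 was 0.740-fold Mcm7 (0.646 to 0.850) in replicate 1 and 0.797-fold (0.705 to 0.899) in replicate 2, and the other neighbours in the order of either replicate did not differ beyond counting error. Mcm5 was thus the subunit set apart in RNA on exons, and Mcm3 and Mcm2 those set apart in footprints. With RNA-seq counted over the CDS, Mcm5 was 0.912-fold Mcm7 in replicate 1 (0.788 to 1.05) and 1.04-fold in replicate 2 (0.913 to 1.18), so the gap was then within counting error in both.

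In 3 of the 15 pairs, footprints and RNA differed in direction with all 3 intervals away from equal density. Mcm2 was 0.698-fold Mcm5 in footprints (0.630 to 0.773) and 1.37-fold Mcm5 in RNA-seq replicate 1 (1.21 to 1.55). It was also 1.37-fold in replicate 2 (1.23 to 1.53). Mcm5 was 1.14-fold Mcm6 in footprints (1.04 to 1.26), but 0.692-fold (0.608 to 0.788) and 0.789-fold (0.702 to 0.884) in the RNA-seq replicates. Mcm4 was 0.874-fold Mcm5 in footprints (0.793 to 0.964), but 1.55-fold (1.37 to 1.75) and 1.41-fold (1.26 to 1.57) in RNA. All 3 pairs include Mcm5, and with RNA-seq counted over the CDS, 1 pair, Mcm4 with Mcm5, was left. The counted 3′UTR of Mcm5 was 992 nt, the longest of the 6, and held 13.6% and 9.26% of its RNA-seq counts. There is 1 ribosome profiling library, so the intervals of footprint ratios include no spread between cultures.

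Other complexes with equal copies of each subunit give a scale for this spread. In ORC, which marks origins, the SD of log2 density over its 6 subunits was 1.27 in footprints and 1.35 for mean RNA. Orc6 had 86.9 RPKM in footprints and Orc1, a subunit known to vary through the cell cycle, had 8.50 RPKM. Of the CDS of Orc6, 74.8% of the annotated length was counted. The SD of GINS, the partner of Cdc45 in the helicase, was 1.43 in footprints and 1.36 in RNA, with Gins1 at 87.0 RPKM and Gins3 at 8.27 RPKM in footprints, the latter on 19.0 footprints. The highest footprint density was thus 10.2-fold the lowest in ORC and 10.5-fold in GINS, where it was 1.64-fold in the MCM ring.

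RFC, which loads PCNA, lay between, with an SD of 0.64 in footprints and 0.66 in RNA and footprint densities from 31.0 RPKM for Rfc1 to 81.3 RPKM for Rfc2. The chaperonin CCT, included as a ring outside replication, had an SD of 0.18 over 8 subunits in footprints but 0.78 in RNA. The MCM subunits were therefore the least spread of the 5 complexes in RNA and, after CCT, in footprints. In CCT the spread was smaller in footprints than in RNA.

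**Figure D2:**
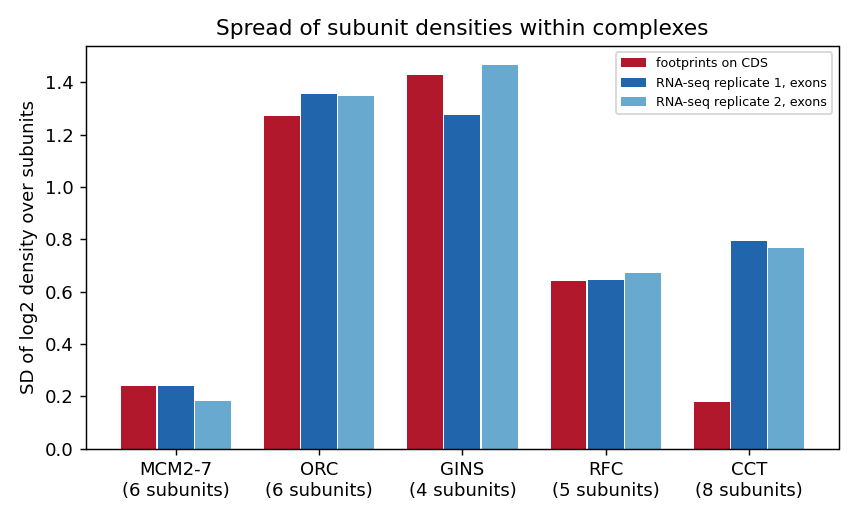
SD of log2 density over the subunits of 5 complexes, in footprints on the CDS (red) and in RNA-seq replicates 1 (dark blue) and 2 (light blue) on exons, with the number of subunits in brackets. The MCM bars lie between 0.18 and 0.24, and CCT is the complex with a low bar in footprints and high bars in RNA.

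Translational efficiency was taken as the log2 ratio of CDS footprint RPKM to mean exon RPKM in RNA-seq, relative to the median of 9863 genes. These genes passed filters of more than 1 RPKM in each RNA-seq replicate, a base mean (the mean count after scaling the libraries) above 25, and footprints on the CDS. The median of the 6 subunits was 2.22 ± 0.08 (SD over the 2 RNA-seq replicates), and it was 3.04 without division by length. Mcm5 had the highest value of the ring at 2.77 ± 0.03, followed by Mcm3 at 2.41 ± 0.13 and Mcm7 at 2.31 ± 0.05. Mcm6 was at 2.14 ± 0.11, Mcm4 at 2.02 ± 0.07 and Mcm2 at 1.80 ± 0.03. The counting error of each value, over footprints and RNA, was between 0.06 and 0.07. The range of 0.97 from Mcm2 to Mcm5 was larger than these errors. With RNA-seq counted over the CDS, Mcm5 was at 2.68 and Mcm3 at 2.64, and the range fell to 0.69. Without division by length they were at 3.20 and 3.18, with a range of 0.70, so the lead of Mcm5 over Mcm3 was small under both.

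All 10 members had a log2 translational efficiency above 1, where 20.8% of all 9863 genes did. None was below -1 (0 of 10), against 21.1% of all genes. The median of the 10 was 2.14, and it was 2.73 without division by length. With division by length, the 10 lay between percentile 89.5, for Cdc45, and percentile 98.0, for Pcna. RNA levels of the ring lay near the middle of the same genes, between percentile 42.1 for Mcm5 and percentile 55.2 for Mcm4, while their footprint densities were at percentiles 85.3 and 83.5. Efficiency across genes varied with length. Among the 859 genes whose counted CDS was between 2157 and 2712 nt, the range of the subunits, the median was -0.38 and 8.27% were above 1, the 6 subunits included. The count of 10 held with RNA-seq counted over the CDS and with either RNA-seq replicate left out.

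**Figure D3:**
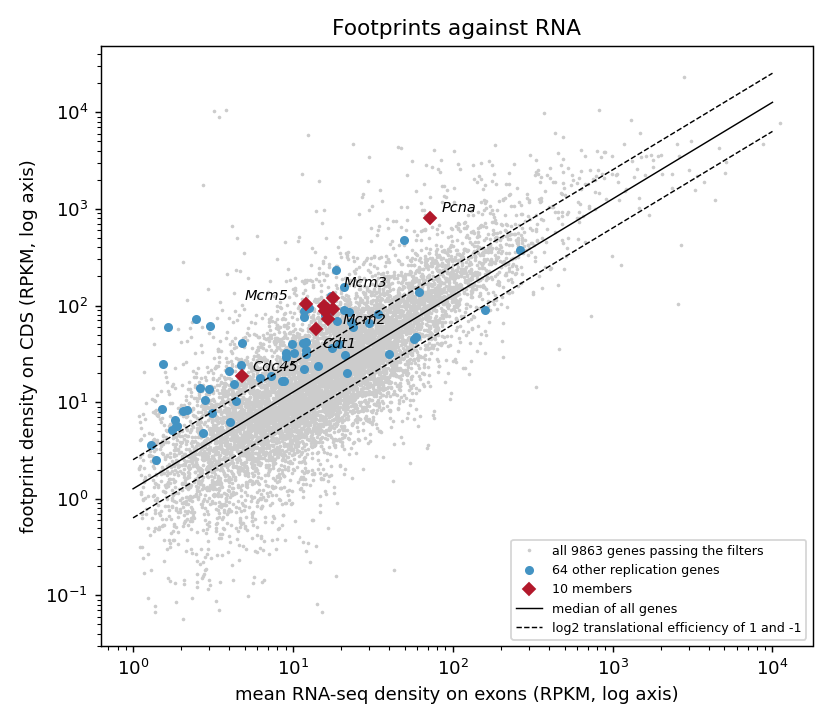
Footprint density on the CDS against mean RNA-seq density on exons, both in RPKM on log axes, for the 9863 genes passing the filters (grey), 64 other replication genes (blue) and the 10 members (red diamonds). The solid line is the median of all genes and the dashed lines mark log2 translational efficiencies of 1 and -1; all 10 members lie above the upper dashed line.

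Pcna, the clamp, on chr2:132249162-132253314, was the most abundant member. It had 811 RPKM in footprints (778 to 845) and 77.0 and 67.9 RPKM in the RNA-seq replicates. Relative to the median subunit of the ring, this was 8.52-fold in footprints, 4.56-fold in RNA-seq replicate 1 and 4.23-fold in replicate 2. Its log2 translational efficiency of 3.14 ± 0.12 was the highest of the 10. The clamp is a trimer of this 1 protein. Of its coding windows, 77.2% also occur in other annotated genes, as given above.

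Cdc45, which joins the ring to form the active helicase, on chr16:18780447-18811987, was the least abundant member. It had 18.5 RPKM in footprints (15.2 to 22.2) and 4.96 and 4.61 RPKM in RNA. The median ring subunit stood 5.15-fold above Cdc45 in footprints and 3.41-fold and 3.48-fold above it in RNA. Its log2 translational efficiency was 1.61 ± 0.06 with a counting error of 0.16, on 111 footprints, the lowest of the 10. With the limit of 1 RPKM set on the deposited values in place of the recomputed ones, it did not pass. Cdc45 overlaps Ufd1 on the opposite strand, and whether counting used strand is not given in the sources used here.

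Cdt1, the loading factor, and Gmnn, its inhibitor, form a pair of opposed function. Cdt1, on chr8:122568015-122573554 where it overlaps Gm20388 on the same strand, had 57.7 RPKM in footprints (51.7 to 64.1) and 14.1 and 13.6 RPKM in RNA. Gmnn, on chr13:24751845-24761923, had 88.6 RPKM in footprints (76.4 to 102) and 17.6 and 14.2 RPKM in RNA. The ratio of Gmnn to Cdt1 was 1.54 in footprints (1.28 to 1.83), 1.25 in RNA-seq replicate 1 (1.04 to 1.50) and 1.04 in replicate 2 (0.875 to 1.24). On exons, Gmnn thus exceeded Cdt1 in RNA-seq replicate 1, and in replicate 2 the gap was within counting error. With RNA-seq counted over the CDS, Gmnn had 22.9 and 17.9 RPKM and Cdt1 14.0 and 14.3 RPKM, a ratio of 1.63 in replicate 1 (1.32 to 2.00) and 1.25 in replicate 2 (1.03 to 1.52), so the gap exceeded counting error in both. Log2 translational efficiency was 2.14 ± 0.21 for Gmnn and 1.71 ± 0.03 for Cdt1 with RNA on exons, and 2.07 and 1.98 with RNA over the CDS. The replicate spread of Gmnn was the largest of the 10 members, from 1.99 with RNA-seq replicate 1 to 2.29 with replicate 2.

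Start codons are where ribosomes enter the CDS, and their surroundings are shown for the members that bound the range of efficiency in the ring and for the others, with the ATG in capitals, from GENCODE M21 transcripts.
Mcm5: acagtcATGtcg
Mcm2: gcagacATGgcg
Pcna: gccaccATGttt
Cdc45: gtggctATGttc
Cdt1: ggcgccATGgcg
Gmnn: tgaaaaATGaat
All 10 members have a purine 3 bases before the ATG, as do 85.0% of 19565 genes, and 5 of them, Mcm2, Mcm3, Mcm6, Mcm7 and Cdt1, also have a G directly after it. Both features together occur in 42.1% of these genes. An ATG upstream of the start codon occurs in the 5′UTR of 5 members, against 50.9% of all genes, with 4 in Mcm7, 4 in Cdc45 and 1 each in Mcm2, Pcna and Gmnn. For some of them, the annotated 5′UTR searched here is longer than the one used for the counts below. It is 666 against 106 nt in Mcm7, 278 against 144 nt in Pcna and 282 against 132 nt in Gmnn.

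Counts by region show where on the transcripts these reads lay. Footprints on 5′UTRs made up between 0.0383% of all footprints, in Mcm3, and 4.11%, in Pcna, with Gmnn next below Pcna at 3.62%. Over the whole library the share was 4.50%. Of the RNA-seq counts of Pcna, 22.6% and 25.5% fell on the 144 counted nt of its 5′UTR, a density 2.15-fold and 2.32-fold that of its CDS, while in footprints the 5′UTR had 0.238 of the density of the CDS. Mcm6 showed the opposite, with 16.2 footprints on 91 nt of 5′UTR but 0.762 and 1.52 RNA-seq counts. The 5′UTR of Mcm7 was also covered in RNA, at 1.17-fold and 1.34-fold the density of its CDS, and the gene overlaps Ap4m1 and Cops6 on the opposite strand and the microRNA genes Mir106b, Mir93 and Mir25 on its own.

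Of the members, 8 had at least 60 nt of counted 5′UTR and Mcm3 had 5 nt. In 0 of these 8 did footprint density on the 5′UTR exceed that on the CDS, against 18.6% of 6951 genes with at least 60 nt of 5′UTR, footprints on it and at least 10 footprints on the CDS. The median ratio was 0.246 in the 8 members and 0.419 in all of these genes. Footprints on 3′UTRs made up between 0% in Cdc45 and 1.96% in Pcna, against 1.84% of the library. In RNA, the 3′UTR of Cdt1 held the largest share among the 10, at 24.1% and 19.5%, ahead of Pcna at 20.3% and 14.6%. Footprints of the members thus lay mostly on the CDS, as did 90.1% of those of the whole library. The count of 0 rests on 8 members, and its difference from 18.6% was not tested. Mcm6 was the member whose 5′UTR to CDS ratio was higher in footprints (0.548) than in both RNA-seq replicates (0.0409 and 0.0696).

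**Figure D4:**
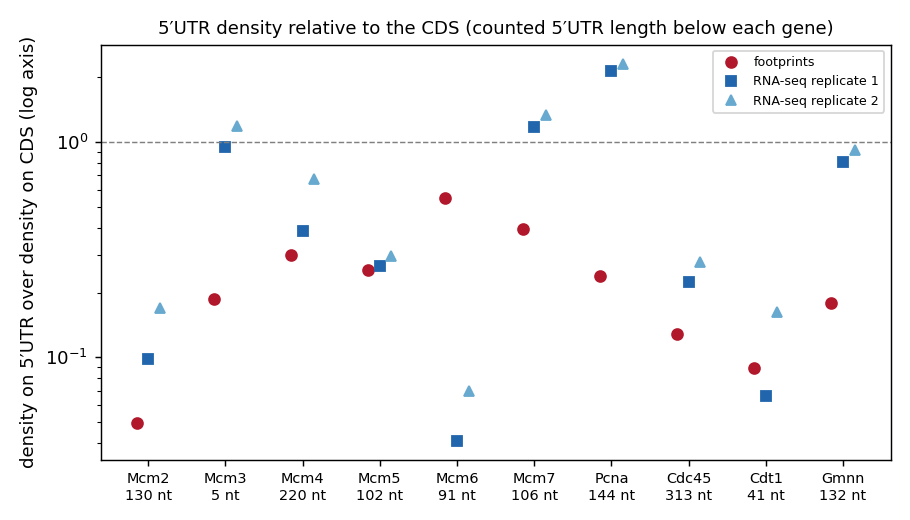
Density on the counted 5′UTR over density on the CDS (log axis) for each member in footprints (circles) and RNA-seq replicates 1 (squares) and 2 (triangles), with the counted 5′UTR length under each name. All footprint ratios are below 1 (dashed), that of Mcm6 being the highest at 0.548, and the RNA ratios of Pcna and Mcm7 are above 1 in both replicates and that of Mcm3, on 5 nt, in replicate 2 at 1.19.

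The other genes of DNA replication were described by role, from a list of 66 genes, all with a row and 64 of them within the filters. The median log2 translational efficiency of the 64 was 1.33, with 42 of 64 above 1 and 1 below -1, against 20.8% and 21.1% of all genes. The members, 10 of 10 above 1 with a median of 2.14, lay higher than these genes, and the difference was not tested. Among ORC and loading genes, 4 of 7 were above 1, from Orc5 at 0.37 to the loading ATPase Cdc6 at 3.67. Cdc6 had RNA levels of 1.89 and 1.19 RPKM, and 74.0% of the annotated length of its CDS was counted. Of the 4 other MCM genes, Mcm10, a fork component, was highest at 1.84 and Mcm9, a repair helicase, lowest at 0.47. In GINS, 3 of 4 were above 1, from Gins4 at 0.72 to Gins1 at 2.55.

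Of the 8 firing factors, 5 were above 1. Mtbp, needed for origin firing, was highest at 1.51, and Dbf4, the activator of the Cdc7 kinase, lowest at -0.69. The 3 fork protection genes ran from Tipin at 0.70 to the checkpoint adaptor Clspn at 1.63. Among clamp loaders and unloader, 3 of the 8 that passed were above 1, from Chtf8 at -0.70 to Rfc5 at 2.33. Of the CDS of Chtf8, only 363 nt, 18.5% of the annotated length, were counted. Dscc1 did not pass, with 0.808 and 0.545 RPKM in RNA. The passing genes that load or unload the clamp thus lay lower than Pcna itself, at 3.14. Dscc1, outside the filters, had 3.50 with a counting error of 0.38, so this order holds only for genes that passed.

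Of 12 polymerase genes 9 were above 1, with the accessory subunits Pole4 highest at 2.57 and Pold4 lowest at -1.17. The 3 subunits of RPA, which coats single-stranded DNA, were all above 1, from Rpa1 at 1.98 to Rpa2 at 2.75. On the lagging strand, the flap nuclease Fen1 was at 2.51 and the ligase Lig1 at 1.48, and Dna2 did not pass, with 0.824 and 0.553 RPKM in RNA. RPA and the lagging strand genes were the roles whose passing genes all lay above 1 together with the PCNA partners, of which Chaf1a, a subunit of a chromatin assembly factor, was lowest at 1.17. Pclaf, a small protein that binds PCNA, was listed under its older symbol 2810417H13Rik and was highest at 4.53, with a counting error of 0.31. It had 72.7 RPKM in footprints (48.0 to 103) and 2.49 and 2.48 RPKM in RNA, but only 114 nt of its CDS, 34.5% of the annotated length, were counted.

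Genes that remove Cdt1 differed from each other, from the ubiquitin ligase scaffold Cul4a at -0.64 to the substrate receptor Skp2 at 2.10. The 5 genes of nucleotide supply had the highest median of the 12 roles at 3.29. Among them Rrm1, the large subunit of ribonucleotide reductase, was lowest at 0.81. The dividing cell markers given above were also higher in footprints than in RNA.

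**Figure D5:**
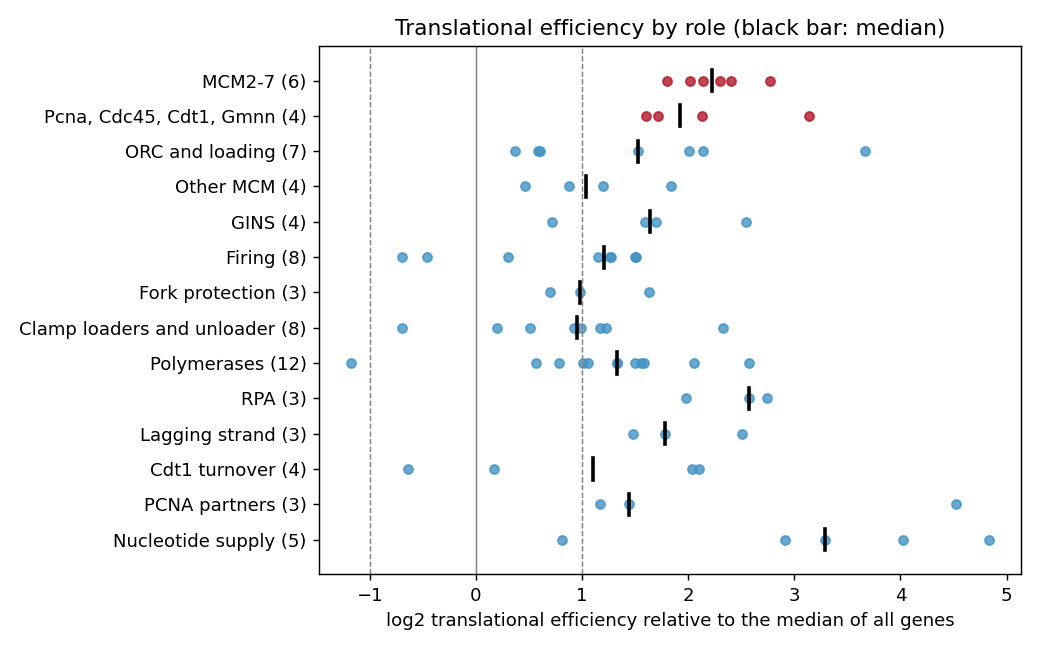
Log2 translational efficiency relative to the median of all genes for the members (red) and the other replication genes that passed the filters (blue), 1 point a gene, by role with the number of genes in brackets and the median as a black bar. The ring subunits lie between 1.80 and 2.77, and the lowest gene of the other roles lies at -1.17.

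Promoters were searched because E2F factors are known regulators of genes of S phase, and the 3 libraries hold no direct readout of promoters. RefSeq promoters on GRCm38.p6, each of 300 bases around a start site, were present for 8 of the 10 members, not for Mcm4 and Gmnn, with 9 promoters in all. The letters searched on both strands were TTTCCCGC, TTTGGCGC, TTTCGCGC and TTTGCCGC, whose matches can overlap each other. They occurred in 5 of 9 member promoters, in 19 of 65 promoters of the other replication genes (29.2%) and in 2.26% of all 32851 promoters. Matches are shown in capitals within their surroundings on the strand of the gene, where GCGCCAAA, GCGGGAAA and GCGCGAAA are the same letters on the other strand.
Mcm3, chr1:20820263-20820282: tgggaagtTTTGGCGCcaag
Mcm5, chr8:75109348-75109371: ccaagaacTTTCGCGCcaaaacgt
Mcm6, chr1:128359737-128359760: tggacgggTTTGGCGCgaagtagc
Mcm7, chr5:138172033-138172056: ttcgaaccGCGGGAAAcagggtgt
Cdt1, chr8:122568039-122568062: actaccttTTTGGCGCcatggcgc
Mcm3, Mcm5 and 1 of the 2 promoters of Mcm7 held 2 matches each, Mcm6 held 3 and Cdt1 held 1. Both matches of Mcm3, at positions 20 and 39 from the start site, lie downstream of it. So do 1 match of Mcm7, at position 17, and that of Cdt1, at position 33, while the other matches begin upstream. The promoters of Mcm2, Pcna and Cdc45 held 0 in this window. A match describes letters and does not show that a factor binds there.

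By the likeness of the 3 log2 RPKM values to the medians of the 6 subunits, over the 4829 genes that reached 100 counts in each of the 3 libraries, the nearest genes outside the ring were Magohb, Gcat, Cdca8, Nop16 and Pmf1. Their Euclidean distances on the log2 scale were from 0.04 for Magohb to 0.13 for Pmf1. Magohb had 96.0 RPKM in footprints and 17.3 and 16.2 RPKM in RNA. Of the ring itself, Mcm6 lay at a distance of 0.09 and Mcm7 at 0.10, while Mcm5 was the farthest at 0.65, at rank 136.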

How the data were processed

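The authors trimmed the reads with Trim Galore, aligned them to GRCm38 with STAR 2.6.1, filtered ribosome profiling reads with Bowtie2 2.4.1 and counted genes by region with Plastid. The deposited expected counts need not be whole and are not normalized. The deposited RPKM divides them by length and a larger library total, so RPKM was recomputed with the sum of exon counts. The authors' region lengths were used as deposited. The base mean was computed in Python from unrounded counts, scaled by median-of-ratios factors of counts rounded to whole numbers. DESeq2 1.42.0 and edgeR 4.0.16 in R 4.3.3 gave the factors of the scaling alternatives, also from rounded counts. Other steps ran in Python 3.11.15 with numpy 2.4.6, pandas 2.3.3, scipy 1.17.1 and matplotlib 3.10.9, and were tested on simulated data. Pclaf and Adgre1 were found under older symbols through RefSeq synonyms. Intervals are exact at 95%, with ratios from rounded counts. A count of 0 was read as up to 3 counts. The RNA-seq replicates differed by a chi-square of 7.52 per degree of freedom and were taken as separate samples, whose mean is used in translational efficiency. With 1 ribosome profiling library and 1 condition, no test between conditions or cultures was run. Ratios of genes within a library were set against equal density by their intervals, which cover counting error only. Named genes were the members, the highest and lowest of each role and those not passing, subunits of compared complexes, modified genes, markers and the 5 nearest genes. A result that this rule would name is not reported here. Members and lists were chosen with earlier results of these data known.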

Additional observations from a re-analysis of the deposited data

How the results depend on the processing

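The alternatives were another region, length, pseudocount, filter, scaling or RNA-seq replicate, 1 changed at a time, and 1 of them, taking the median over genes counted on 80% or more of their annotated CDS, was chosen after seeing the data. Members above 1 numbered 10 in each, apart from the limit on the deposited RPKM, under which 9 members passed and 9 were above 1, and members below -1 numbered 0. Library scaling largely cancels in a value set against the median of all genes, so its alternatives test little. Without division by length, the SD over the ring subunits was 0.19 in footprints and 0.29 in RNA, and medians of log2 translational efficiency were 3.04 for the ring, 2.73 for the 10 members and 1.80 for the other replication genes. With RNA-seq counted over the CDS, the SD in RNA was 0.14 and the ring's median 2.42. With at least 100 counts in every library, which changes the genes behind the median, these medians were 1.83, 1.74 and 0.99. The other replication genes were at 1.21 with a pseudocount of 1 RPKM and at 1.16 under the limit on the deposited RPKM, which left 40 of 64. Of 59 values for single members under the 6 alternatives of region, length, pseudocount and filter, 27 moved by less than the replicate SD, 17 were higher and 15 lower, and all 59 were above 1. Leaving out an RNA-seq replicate gave ring medians from 2.16 to 2.28. Apart from the filters, the cause of these changes was not tested.

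No paired analysis was possible because there was 1 condition and 1 ribosome profiling library. Counting error limits Cdc45 most, on 111 footprints, and 5′UTR ratios, which rest on at most 21.3 footprints in members other than Pcna. The ring's efficiency has no spread over cultures in footprints.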
